A study of Drosophila melanogaster with 9 samples.

Results

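Gene expression in sorted progenitors of the adult Drosophila melanogaster intestine was compared between 3 libraries labelled swm RNAi and 3 control libraries. These are 6 of the 9 libraries of the series, and all 17806 genes with an identifier in their raw count table were considered. The swm RNAi libraries carry swm RNAi as the genotype and a treatment given as a knock-down of Swm. The controls are titled esgTS, with WT as the genotype and Control as the treatment. Each library came from the intestines of 100 adult females, pooled, from which 30000 to 50000 GFP-positive progenitors were sorted after digestion with elastase. The labels give neither fly age nor the duration of the knock-down, nor the full genotype of either group, and no control RNAi line is named. The other 3 libraries of the series are CLIP-seq libraries of whole intestines and were not used here.

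Swm is an RNA-binding protein with a CCCH zinc finger and an RNA recognition motif, related to RBM26 and RBM27 of mammals. Intestinal progenitors of the fly are the stem cells and the enteroblasts they give rise to, and both express esg. The name esgTS usually stands for the esg-GAL4 driver with temperature-sensitive GAL80, which turns a transgene on in all progenitors of the gut when the flies are moved to a warmer temperature. Because both cell types carry the driver, the libraries describe the mixture, and fewer cells of a type cannot be told apart from less RNA per cell.

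The libraries held 14627251 to 19962224 counts. Levels below are CPM after TMM scaling, which corrects for library size, given for replicates 1, 2 and 3 of a group in that order, and log2 fold changes are swm RNAi over control. The targeted transcript, swm, stood at 159, 137 and 135 CPM in the swm RNAi libraries, against 159, 116 and 157 CPM in the controls (edgeR log2 fold change -0.0036 with SE 0.17, adjusted p = 0.998). The groups overlapped, so the transcript gave no check of the labels, and each direction below is that of the libraries labelled swm RNAi. Markers of other cell types were present in both groups. The 12 tested of 15 visceral muscle markers summed to 4062, 6932 and 5102 CPM in the swm RNAi libraries, against 9749, 2399 and 6436 CPM in the controls, and none of them was called. The 13 tested of 20 enteroendocrine markers summed to 204, 216 and 258 CPM in the swm RNAi libraries, against 273, 225 and 228 CPM in the controls, with Dh31 and Mip at 0 counts in all 6 libraries, and Syt4 was the called marker among them, higher in the swm RNAi libraries. Control libraries differed more among themselves than swm RNAi libraries did, with correlations of log2 CPM of 0.894 to 0.932 between controls and 0.956 to 0.961 between swm RNAi libraries. Control replicate 3 correlated least with the swm RNAi libraries, at 0.887 to 0.892. Control replicate 1 gave 0.910 to 0.923 there and control replicate 2 0.929 to 0.932. Sample quality weights of a limma voom fit were 0.53, 0.86 and 0.35 in control replicates 1, 2 and 3. For abundant mRNAs with long 3′ untranslated regions (3′UTRs), control replicate 2 was low and control replicate 1 high, each against the other controls. Control replicate 3 had the fewest genes with a count (8677, against 9361 to 11084 in the other 5 libraries). Results that rest on control replicate 2 are given with and without it, the counts without it at the end. No label says whether replicates of a group were separate crosses, and the p-values therefore cover only the spread between these samples, which may be technical.

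Expression differed in 282 of 8899 genes tested (3.17%), with 208 (2.34%) higher and 74 (0.832%) lower in libraries labelled swm RNAi (edgeR quasi-likelihood test, Benjamini-Hochberg adjusted p below 0.05, called below). In 1802 genes (20.2%) the groups did not overlap, with the swm RNAi libraries higher in 1095 (12.3%) and lower in 707 (7.94%). The called changes were mostly large: 171 of the 208 higher genes (82.2%) and 51 of the 74 lower genes (68.9%) differed at least 2-fold. With each library left out in turn, 116 of the 282 calls (41.1%) held in all 6 fits, 101 of them higher and 15 lower. A call is said to hold below where it did so, and for each named gene that lost its call the libraries are given. The total fell to 141, 146 and 161 genes without swm RNAi replicates 1, 2 and 3, and the lower genes became 116 without control replicate 1. In the authors' deposited table of the same comparison, 312 genes had a positive and 144 a negative log2 fold change at an adjusted p below 0.05, and 280 of the 282 genes called here were among them, all 282 with the same sign in that table. Genes were then read by family, over 82 lists of gene families, pathways and cell type markers, chosen with earlier results of these data known. A further 5 lists were put together after gene values had been seen. Of the 82 lists, 49 held at least 1 called gene. The 82 lists and the 5 further lists together held 112 of the 282 called genes, and 170 lay outside them.

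**Figure D1:**
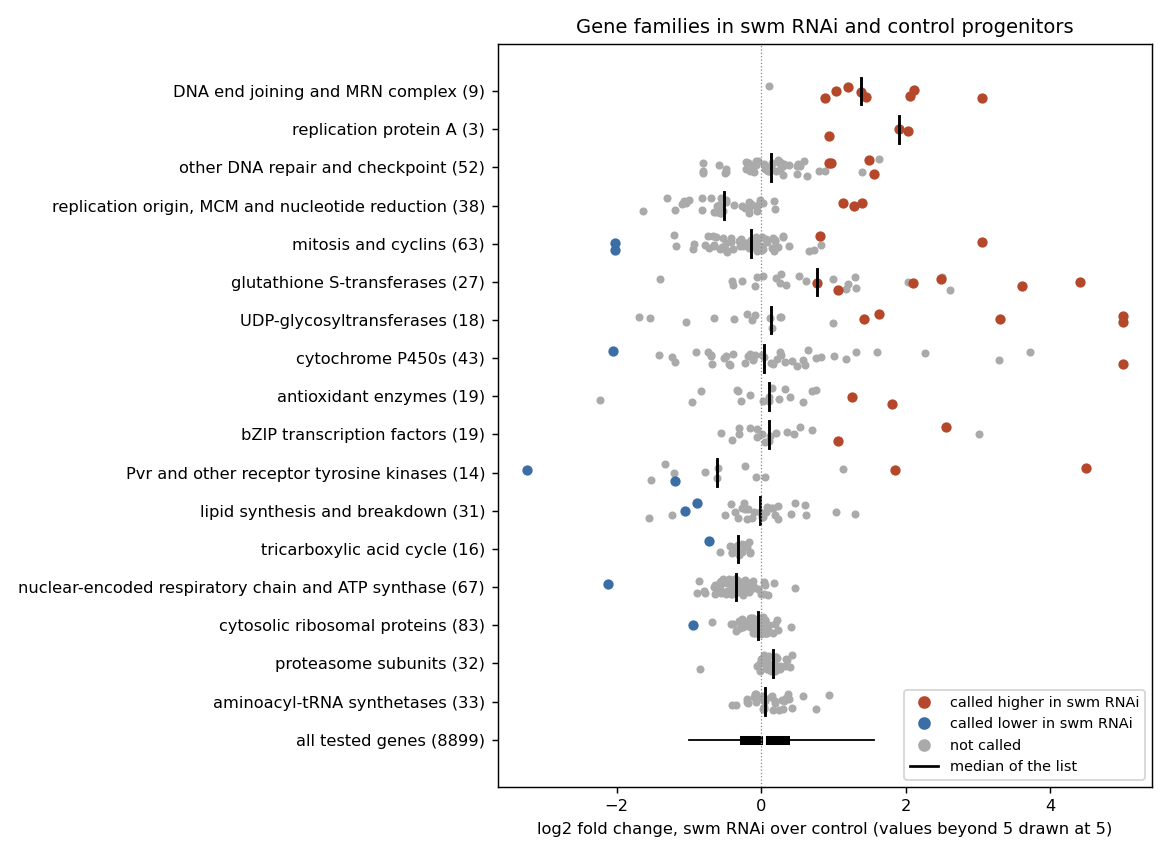
Log2 fold change (swm RNAi over control, x axis) of every tested member of 17 gene lists (rows), with members called higher in red, called lower in blue and not called in grey, and the list's median as a black bar. The bottom row gives all 8899 tested genes (line, 5th to 95th percentile; bar, quartiles): DNA end joining (median 1.38) and replication protein A (median 1.91) lie to the right of it, and replication origin genes (median -0.51) to the left.

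The machinery that joins broken DNA ends rose in all but 1 of its listed genes. Of 9 genes of DNA end joining and the MRN complex, all of them tested, 8 were higher and 0 lower, against 2.34% of all tested genes called higher. Their median log2 fold change was 1.38, against 0.03 over all tested genes. Both subunits of the Ku heterodimer, which binds DNA ends first, were among them. Ku80 had 174, 152 and 129.7 CPM in the swm RNAi libraries, against 13.1, 18.8 and 22.9 CPM in the controls (edgeR log2 fold change 3.06 with SE 0.23, adjusted p = 3.43e-05). Irbp, the Ku70 subunit, had 124, 108 and 113 CPM in the swm RNAi libraries, against 14.6, 36.96 and 28.2 CPM in the controls (edgeR log2 fold change 2.11 with SE 0.29, adjusted p = 0.00321). DNAlig4, the ligase that seals the joined ends, had 46.5, 44.7 and 44.9 CPM in the swm RNAi libraries, against 8.59, 14.9 and 9.14 CPM in the controls (edgeR log2 fold change 2.06 with SE 0.25, adjusted p = 0.00103). In each of these genes every swm RNAi library exceeded every control, as in 12.3% of all tested genes.

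The 3 subunits of the MRN complex, which senses and trims double-strand breaks, rose together. nbs had 139, 116 and 118 CPM in the swm RNAi libraries, against 37.9, 53.2 and 45.6 CPM in the controls (edgeR log2 fold change 1.45 with SE 0.17, adjusted p = 0.000861). rad50 had 282, 271 and 283 CPM in the swm RNAi libraries, against 147, 102 and 116 CPM in the controls (edgeR log2 fold change 1.19 with SE 0.18, adjusted p = 0.00306). mre11, the nuclease subunit, had 105, 95.9 and 90.2 CPM in the swm RNAi libraries, against 32.98, 55.3 and 52.96 CPM in the controls (edgeR log2 fold change 1.04 with SE 0.21, adjusted p = 0.0189), and lost its call without swm RNAi replicate 1, 2 or 3 (highest edgeR adjusted p 0.0977, without swm RNAi replicate 1). XRCC1, a scaffold of single-strand break repair, was higher by a log2 fold change of 1.38 (SE 0.20). Its partner ligase DNAlig3 was higher by 0.88 (SE 0.21) and lost its call without swm RNAi replicate 1, 2 or 3 or control replicate 2 or 3 (highest edgeR adjusted p 0.218, without swm RNAi replicate 2). The remaining member, DNApol-theta, the polymerase of alternative end joining, had a log2 fold change of 0.10 (SE 0.18) and was not called. Without control replicate 2, 7 of the 9 genes were called higher, against 2.11% of 9297 genes tested in that fit, and the median was 1.49.

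All 3 subunits of replication protein A, which coats single-stranded DNA during replication and repair, were higher, with a median log2 fold change of 1.91. The large subunit RpA-70 had 386, 310.1 and 288 CPM in the swm RNAi libraries, against 84.7, 98.5 and 78.2 CPM in the controls (edgeR log2 fold change 1.91 with SE 0.18, adjusted p = 0.000160). RPA3 had 77.0, 71.1 and 60.9 CPM in the swm RNAi libraries, against 8.85, 19.6 and 22.8 CPM in the controls (edgeR log2 fold change 2.03 with SE 0.31, adjusted p = 0.00522). In both genes every swm RNAi library exceeded every control, as in 12.3% of all tested genes. RPA2 was higher by a log2 fold change of 0.94 (SE 0.20), and lost its call without swm RNAi replicate 1, 2 or 3 or control replicate 2 (highest edgeR adjusted p 0.148, without swm RNAi replicate 1). Other repair and checkpoint genes gave 4 calls: 4 of 52 tested were higher and 0 lower, against 2.34% and 0.832% of all tested genes. Their median was 0.14. The 4 were nucleotide excision repair genes and a translesion polymerase. Xpc, which recognises damage, was higher by 0.96 (SE 0.16), and DNApol-zeta, the catalytic subunit of the translesion polymerase, by 1.49 (SE 0.24). The nucleases mus201 and mei-9 were higher by 1.56 (SE 0.32) and 0.93 (SE 0.21). mus201 lost its call without swm RNAi replicate 1, 2 or 3 or control replicate 1 (highest edgeR adjusted p 0.117, without control replicate 1), and mei-9 without swm RNAi replicate 1, 2 or 3 or control replicate 2 or 3 (highest edgeR adjusted p 0.283, without swm RNAi replicate 1). Whether the frequencies of calls in these 3 lists differ was not tested.

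**Figure D2:**
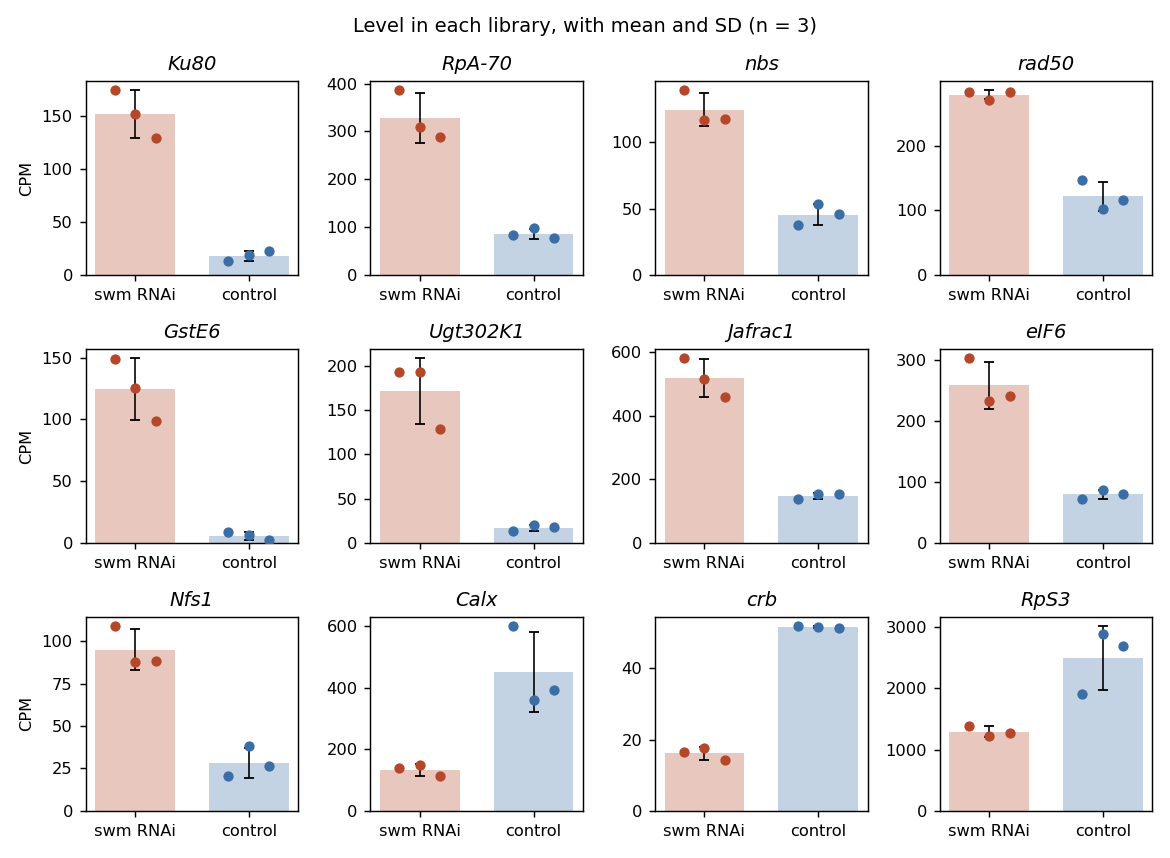
CPM (y axis) of 12 genes in the 3 swm RNAi libraries (left in each panel) and the 3 control libraries (right), with bars at the group mean and lines of 1 SD (n = 3 each). The groups do not overlap in any of the 12 genes, as in 20.2% of all tested genes. Ku80, RpA-70, nbs, rad50, GstE6, Ugt302K1, Jafrac1, eIF6 and Nfs1 are higher in the swm RNAi libraries, and Calx, crb and RpS3 lower.

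Some conjugating enzymes of detoxification also rose. Glutathione S-transferases, which attach glutathione to toxic compounds, had 6 of 27 tested members higher and 0 lower, against 2.34% and 0.832% of all tested genes. Their median log2 fold change was 0.77. It was 0.325 over members with a mean of at least 5 CPM, and 0.344 with no filter on low counts. GstE6 had 149, 126 and 98.7 CPM in the swm RNAi libraries, against 8.64, 6.81 and 2.16 CPM in the controls (edgeR log2 fold change 4.41 with SE 0.49, adjusted p = 0.00383). GstD9 had 37.8, 28.8 and 28.8 CPM in the swm RNAi libraries, against 3.48, 7.598 and 5.85 CPM in the controls (edgeR log2 fold change 2.49 with SE 0.32, adjusted p = 0.00146). GstE1 was higher by 2.10 (SE 0.24) and GstT1 by 1.06 (SE 0.17). These 4 calls held, and every swm RNAi library exceeded every control in them, as in 12.3% of all tested genes. GstD3 and GstD5 were higher by 0.77 (SE 0.18) and 3.61 (SE 0.82); GstD3 lost its call without swm RNAi replicate 1, 2 or 3 or control replicate 1 or 2 (highest edgeR adjusted p 0.272, without swm RNAi replicate 1) and GstD5 without swm RNAi replicate 1, 2 or 3 or control replicate 2 or 3 (highest edgeR adjusted p 0.187, without swm RNAi replicate 1). Members of each Gst cluster are near-identical in parts, so reads may have been divided among them in counting. Gclc, the catalytic subunit of the enzyme that starts glutathione synthesis, was higher by 1.26 (SE 0.18). Jafrac1, a cytosolic peroxiredoxin, had 581, 514 and 459 CPM in the swm RNAi libraries, against 138, 155 and 153 CPM in the controls (edgeR log2 fold change 1.80 with SE 0.17, adjusted p = 0.000161). They were the called members among 19 tested antioxidant enzymes, whose median was 0.11.

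UDP-glycosyltransferases, which attach sugars to foreign and endogenous compounds, had 5 of 18 tested members higher and 0 lower, against 2.34% and 0.832% of all tested genes. Their median was 0.14. That median was -0.098 without swm RNAi replicate 2 and also without control replicate 1, and 8 of the 18 had negative log2 fold changes. Ugt302K1 had 193, 193 and 129 CPM in the swm RNAi libraries, against 13.96, 20.3 and 17.8 CPM in the controls (edgeR log2 fold change 3.30 with SE 0.22, adjusted p = 2.04e-05). Ugt302C1 had 381, 359 and 330.1 CPM in the swm RNAi libraries, against 91.8, 123 and 131 CPM in the controls (edgeR log2 fold change 1.63 with SE 0.18, adjusted p = 0.000538). The groups did not overlap in either gene, with the swm RNAi libraries higher, as in 12.3% of all tested genes. Ugt35C1 was higher by 1.43 (SE 0.27) and lost its call without swm RNAi replicate 1 or 3 (highest edgeR adjusted p 0.106, without swm RNAi replicate 1). The other called members, the neighbouring genes Ugt49B1 and Ugt49C1, are described with the genes near 0 in the controls. They had 1 and 0 counts over the controls and passed the filter only through the swm RNAi libraries. Their direction was thereby fixed, so the 5 of 18 includes calls that add no support for a rise in the family. Cytochrome P450s, the oxidising enzymes of the same pathways, gave 1 higher and 1 lower gene of 43 tested, with a median of 0.04, and carboxylesterases with ABC multidrug transporters gave 0 of 10. Differentiated enterocytes express many of these enzymes. The 12 tested of 15 enterocyte markers summed to 586, 549 and 1142 CPM in the swm RNAi libraries, against 453, 485 and 602 CPM in the controls, with Npc2e at 0 counts in all 6 libraries, and none was called. The 40 tested digestive enzymes summed to 2081, 1485 and 4681 CPM in the swm RNAi libraries, against 676, 1252 and 1827 CPM in the controls, with a median log2 fold change of 0.86 and no call. That median was 0.24 without swm RNAi replicate 3, 0.42 without control replicate 1 and 1.25 without control replicate 3. Both sums overlapped between the groups and were highest in swm RNAi replicate 3. Their part in the called rises of conjugating enzymes was not tested.

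Genes of iron-sulfur cluster assembly and iron storage, grouped after their values had been seen, had 5 of 13 members higher and 0 lower. Over all tested genes 2.34% were higher and 0.832% lower. The median log2 fold change of the list was 0.92. Nfs1, the cysteine desulfurase that supplies the sulfur, had 109, 87.9 and 88.1 CPM in the swm RNAi libraries, against 20.8, 38.1 and 26.5 CPM in the controls (edgeR log2 fold change 1.74 with SE 0.23, adjusted p = 0.00151). IscU, the scaffold on which the clusters form, was higher by 0.92 (SE 0.19), and CIAPIN1, of the cytosolic assembly pathway, by 1.30 (SE 0.17). The ferritin subunits Fer1HCH and Fer2LCH were higher by 1.01 (SE 0.20) and 0.92 (SE 0.17). Their annotated spans overlap on opposite strands, and whether counting used strand is not stated, so reads of the pair could not be told apart where they overlap. Nfs1 and CIAPIN1 held. IscU lost its call without swm RNAi replicate 1 or 2 (highest edgeR adjusted p 0.175, without swm RNAi replicate 1), Fer1HCH without swm RNAi replicate 1, 2 or 3 or control replicate 3 (highest edgeR adjusted p 0.106, without swm RNAi replicate 1) and Fer2LCH without swm RNAi replicate 1, 2 or 3 or control replicate 3 (highest edgeR adjusted p 0.0809, without swm RNAi replicate 1). On the side of iron-sulfur enzymes, mAcon1, the mitochondrial aconitase, was lower, at 276, 277 and 269 CPM in the swm RNAi libraries, against 424, 409 and 522 CPM in the controls (edgeR log2 fold change -0.72 with SE 0.17, adjusted p = 0.0437). It was the called gene of 16 tested tricarboxylic acid cycle genes, all of which had negative log2 fold changes (median -0.32), and it lost its call without swm RNAi replicate 1, 2 or 3 or control replicate 3 (highest edgeR adjusted p 0.231, without swm RNAi replicate 3). Nuclear-encoded respiratory chain and ATP synthase genes leaned the same way, with 61 of 67 tested negative, a median of -0.35 and 1 called lower, which held. In 20 of the 67 every swm RNAi library lay below every control, against 7.94% of all tested genes.

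Over all tested genes 2.34% were higher and 0.832% lower, and few genes of the translation machinery were called. Of 83 tested cytosolic ribosomal protein genes 1 was lower and 0 higher, of 72 mitochondrial ribosomal protein genes 0 were called, and of 33 aminoacyl-tRNA synthetases 0 were called, with medians of -0.05, -0.11 and 0.05. The lower gene was RpS3, a small-subunit protein, at 1390, 1227 and 1273 CPM in the swm RNAi libraries, against 1903, 2894 and 2696 CPM in the controls (edgeR log2 fold change -0.95 with SE 0.19, adjusted p = 0.0219). It lost its call without swm RNAi replicate 1, 2 or 3 or control replicate 3 (highest edgeR adjusted p 0.138, without swm RNAi replicate 3). Among 44 tested translation factors, eIF6, which keeps the subunits apart until the large subunit is mature, was the called gene, at 303, 232 and 241 CPM in the swm RNAi libraries, against 72.2, 86.2 and 80.5 CPM in the controls (edgeR log2 fold change 1.70 with SE 0.17, adjusted p = 0.000255). Factors that rescue stalled ribosomes, grouped after their values had been seen, had 3 of 9 members higher and 0 lower. HBS1, which splits stalled ribosomes, had 119, 106 and 91.1 CPM in the swm RNAi libraries, against 26.8, 48.2 and 51.3 CPM in the controls (edgeR log2 fold change 1.33 with SE 0.24, adjusted p = 0.0116) and lost its call without swm RNAi replicate 1 (highest edgeR adjusted p 0.0582, without swm RNAi replicate 1). Clbn, which extends stalled chains, was higher by 1.08 (SE 0.25) and lost its call without swm RNAi replicate 1, 2 or 3 or control replicate 2 or 3 (highest edgeR adjusted p 0.164, without swm RNAi replicate 1). mbf1, which acts at collided ribosomes in yeast, was higher by 0.90 (SE 0.19) and lost its call without swm RNAi replicate 1, 2 or 3 or control replicate 3 (highest edgeR adjusted p 0.138, without swm RNAi replicate 3).

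Stress lists held a few called members, against 2.34% higher and 0.832% lower over all tested genes. Of 19 tested bZIP transcription factors 2 were higher, and they are partners in 1 heterodimer: Irbp18 by 2.56 (SE 0.25) and Xrp1 by 1.06 (SE 0.21). Irbp18 held, and Xrp1 lost its call without swm RNAi replicate 1, 2 or 3 or control replicate 3 (highest edgeR adjusted p 0.0945, without swm RNAi replicate 2). Of 23 genes of the unfolded protein response and ER folding, 1 was higher and 1 lower. wfs1, an ER membrane protein, was higher by 1.82 (SE 0.29). Calx, which encodes a sodium-calcium exchanger and not a folding factor, was lower, at 139.5, 149.8 and 112 CPM in the swm RNAi libraries, against 601, 359 and 393 CPM in the controls (edgeR log2 fold change -1.75 with SE 0.23, adjusted p = 0.00142). ref(2)P, the autophagy receptor that binds ubiquitin, was higher by 0.73 (SE 0.17) and was the called gene of 28 tested autophagy and lysosome genes; it lost its call without swm RNAi replicate 1, 2 or 3 or control replicate 3 (highest edgeR adjusted p 0.175, without swm RNAi replicate 3). Traf4, an adaptor of JNK signalling held in the apoptosis list, was higher by 0.91 (SE 0.17) and lost its call without swm RNAi replicate 2 or 3 (highest edgeR adjusted p 0.0741, without swm RNAi replicate 3). With all 6 libraries, 0 of 24 tested heat shock genes and 0 of 32 tested proteasome subunits were called. Those heat shock genes are taken up again with control replicate 2.

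Replication genes split between their called members and the rest. Of 38 tested genes of origins, the MCM helicase and nucleotide reduction, 3 were higher and 0 lower, against 2.34% and 0.832% of all tested genes. In 32 of the 38 the log2 fold change was negative, and the median was -0.51. RnrL, the large subunit of ribonucleotide reductase, was higher, at 172, 126 and 122 CPM in the swm RNAi libraries, against 43.3, 52.9 and 63.3 CPM in the controls (edgeR log2 fold change 1.40 with SE 0.20, adjusted p = 0.00252). Orc1, of the origin recognition complex, was higher by 1.28 (SE 0.24) and lost its call without swm RNAi replicate 1 or 2 (highest edgeR adjusted p 0.112, without swm RNAi replicate 1). RfC4, of the clamp loader, was higher by 1.13 (SE 0.22) and lost its call without swm RNAi replicate 1 or 3 or control replicate 2 (highest edgeR adjusted p 0.101, without swm RNAi replicate 1). The controls disagreed on this list: its median departure from the other libraries of the group was 0.63 on the log2 scale in control replicate 3 and -0.49 in control replicate 1, and the list's median fold change was -0.23 without control replicate 3 and -0.58 without control replicate 1. Of 63 mitosis and cyclin genes, 2 were higher and 2 lower. thr, a partner of the separase that cuts cohesin at anaphase, had 346, 172 and 187 CPM in the swm RNAi libraries, against 26.5, 27.2 and 30.9 CPM in the controls (edgeR log2 fold change 3.06 with SE 0.27, adjusted p = 0.000129). cnn, of the centrosome, was higher by 0.82 (SE 0.19), and the mitotic activators stg and aurA were lower, with log2 fold changes of -2.03 (SE 0.43) and -2.02 (SE 0.47). cnn lost its call without swm RNAi replicate 1, 2 or 3 or control replicate 1 or 2 (highest edgeR adjusted p 0.175, without swm RNAi replicate 1), stg without swm RNAi replicate 2 or 3 or control replicate 3 (highest edgeR adjusted p 0.118, without swm RNAi replicate 2) and aurA without swm RNAi replicate 1, 2 or 3 or control replicate 2 or 3 (highest edgeR adjusted p 0.188, without swm RNAi replicate 2).

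Signalling pathways each gave at most 4 calls among ligands, inhibitors and receptors, against 2.34% higher and 0.832% lower over all tested genes. kek1, a feedback inhibitor of the EGF receptor, was higher by 4.02 (SE 0.36) and was the called gene of 25 in the EGFR and Ras list. Among 14 tested receptor tyrosine kinases and their ligands 2 were higher and 2 lower. The ligand gene Pvf2 had 102, 100.1 and 72.8 CPM in the swm RNAi libraries, against 23.5, 23.3 and 29.2 CPM in the controls (edgeR log2 fold change 1.85 with SE 0.19, adjusted p = 0.000322). The receptor gene Alk was higher by 4.50 (SE 0.97) and lost its call without swm RNAi replicate 1, 2 or 3 or control replicate 2 (highest edgeR adjusted p 0.201, without swm RNAi replicate 2). Ret and otk, both encoding receptor-like kinases, were lower, with -3.23 (SE 0.42) and -1.20 (SE 0.24); otk lost its call without swm RNAi replicate 1 or 3 (highest edgeR adjusted p 0.0927, without swm RNAi replicate 3). Pi3K21B, the regulatory subunit of the insulin-activated PI3 kinase, was higher by 1.31 (SE 0.22), and cv-2, a secreted protein that binds BMP ligands, by 1.10 (SE 0.18). dome, the receptor of the JAK-STAT pathway, was lower, at 225, 232 and 186 CPM in the swm RNAi libraries, against 386, 354 and 440.5 CPM in the controls (edgeR log2 fold change -0.88 with SE 0.17, adjusted p = 0.0196), and lost its call without swm RNAi replicate 1, 2 or 3 or control replicate 3 (highest edgeR adjusted p 0.151, without swm RNAi replicate 3). In the Wnt list 0 of 21 and in the Notch list 0 of 26 tested genes were called with all 6 libraries. Of 13 tested phosphodiesterases and adenylyl cyclases 1 was higher and 1 lower, and both called genes encode adenylyl cyclases, which make cyclic AMP. Ac3 had 96.9, 106 and 92.7 CPM in the swm RNAi libraries, against 5.06, 8.19 and 3.73 CPM in the controls (edgeR log2 fold change 4.12 with SE 0.28, adjusted p = 2.04e-05). rut had 28.4, 32.2 and 43.4 CPM in the swm RNAi libraries, against 88.8, 65.8 and 65.4 CPM in the controls (edgeR log2 fold change -1.08 with SE 0.21, adjusted p = 0.0176) and lost its call without swm RNAi replicate 1 or 2 (highest edgeR adjusted p 0.0941, without swm RNAi replicate 2).

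Polarity, adhesion and transport lists gave 0 to 3 calls each, against 2.34% higher and 0.832% lower over all tested genes. crb, which sets the apical domain of epithelia, was lower, at 16.5, 17.6 and 14.2 CPM in the swm RNAi libraries, against 51.9, 51.7 and 51.3 CPM in the controls (edgeR log2 fold change -1.68 with SE 0.19, adjusted p = 0.000538), with no overlap, as in 7.94% of all tested genes in that direction. It was the called gene of 21 tested genes of adherens junctions and polarity, and septate junctions gave 0 of 24 and tetraspanins 0 of 23. Of 20 integrin adhesion genes, cher, which encodes filamin, was lower by a log2 fold change of -0.80 (SE 0.17) and lost its call without swm RNAi replicate 1, 2 or 3 or control replicate 3 (highest edgeR adjusted p 0.176, without swm RNAi replicate 3). Nuclear transport gave 1 gene in each direction out of 44 tested. Cse1, the exportin that returns importin alpha to the cytoplasm, was higher, at 289, 260.4 and 230.1 CPM in the swm RNAi libraries, against 119, 152 and 134 CPM in the controls (edgeR log2 fold change 0.94 with SE 0.17, adjusted p = 0.0114). Pen, an importin alpha, was lower, at 33.5, 28.2 and 50.9 CPM in the swm RNAi libraries, against 73.1, 74.7 and 106 CPM in the controls (edgeR log2 fold change -1.17 with SE 0.24, adjusted p = 0.0246). Cse1 lost its call without swm RNAi replicate 1 or 2 (highest edgeR adjusted p 0.0751, without swm RNAi replicate 1) and Pen without swm RNAi replicate 1 or 2 or control replicate 3 (highest edgeR adjusted p 0.115, without swm RNAi replicate 1). Of 47 tested splicing factors, Prp31 and Srp54 were higher by 1.06 (SE 0.18) and 0.64 (SE 0.15), and Smu1 was lower, with -1.18 (SE 0.26); Prp31 lost its call without swm RNAi replicate 1 (highest edgeR adjusted p 0.0583, without swm RNAi replicate 1), Srp54 without swm RNAi replicate 1, 2 or 3 or control replicate 1 or 3 (highest edgeR adjusted p 0.242, without swm RNAi replicate 1) and Smu1 without swm RNAi replicate 1, 2 or 3 or control replicate 3 (highest edgeR adjusted p 0.156, without swm RNAi replicate 1). mRNA export and exosome genes gave 0 calls of 30 with all 6 libraries. For actin, tubulin and muscle contraction the count was 1 lower of 29 (cher), beside the visceral muscle sums given above; their part in it was not tested.

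Lipid and hormone metabolism fell at a few enzymes, against 0.832% called lower over all tested genes. FASN1, a fatty acid synthase, was lower, with -1.06 (SE 0.23), in a list of 31 tested lipid genes with 2 lower and 0 higher. FASN1 lost its call without swm RNAi replicate 2 or 3 or control replicate 3 (highest edgeR adjusted p 0.172, without swm RNAi replicate 3). Juvenile hormone epoxide hydrolases, which break down juvenile hormone and were grouped after their values had been seen, had 2 of 3 members lower. Jheh2 had 180.1, 179 and 203 CPM in the swm RNAi libraries, against 286, 351 and 368 CPM in the controls (edgeR log2 fold change -0.84 with SE 0.17, adjusted p = 0.0214). Jheh1 was lower, with -1.17 (SE 0.25), and Jheh3 had a log2 fold change of -0.85 (SE 0.40), not called. Jheh2 lost its call without swm RNAi replicate 1, 2 or 3 or control replicate 3 (highest edgeR adjusted p 0.150, without swm RNAi replicate 2) and Jheh1 without swm RNAi replicate 1, 2 or 3 or control replicate 2 (highest edgeR adjusted p 0.144, without swm RNAi replicate 2). Zip99C, a metal ion transporter of the ZIP family, was higher by 1.24 (SE 0.17). It was the called gene of 38 tested in a list of sugar and organic anion transporters, which its cargo does not match.

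Of 31 tested synaptotagmins, syntaxins and other genes of synaptic release, 3 were higher and 0 lower, against 2.34% and 0.832% of all tested genes. Syt4, a synaptotagmin, had 28.2, 34.6 and 26.4 CPM in the swm RNAi libraries, against 0 counts in all 3 controls, at least 607-fold higher against a floor of 3 counts over the control group (edgeR adjusted p = 2.04e-05), and its call held. Syt4 passed the filter on counts only through the swm RNAi libraries, which fixed the direction of its call, so it adds no support to the 3 of 31. unc-104, a kinesin that carries vesicle precursors, had 1870, 2316 and 1723 CPM in the swm RNAi libraries, against 163, 78.8 and 95.9 CPM in the controls (edgeR log2 fold change 4.13 with SE 0.30, adjusted p = 3.43e-05). Syx6, a syntaxin of the endosomal and Golgi route, was higher by 1.90 (SE 0.32) and lost its call without control replicate 3 (highest edgeR adjusted p 0.0687, without control replicate 3). Its span overlaps that of the called gene CG9084. The pair of Arc genes, whose proteins derive from a retrotransposon Gag and which were grouped after their values had been seen, rose together. Arc1 had 2806, 2214 and 1655 CPM in the swm RNAi libraries, against 229.7, 356 and 318 CPM in the controls (edgeR log2 fold change 2.88 with SE 0.25, adjusted p = 9.21e-05). Arc2 had 57.4, 58.5 and 42.7 CPM in the swm RNAi libraries, against 10.7, 17.2 and 19.01 CPM in the controls (edgeR log2 fold change 1.76 with SE 0.25, adjusted p = 0.00264). In both Arc genes every swm RNAi library exceeded every control, as in 12.3% of all tested genes. As related sequences, they may have shared reads in counting. Neuron markers summed to 233, 279.7 and 286 CPM in the swm RNAi libraries, against 328, 151 and 219.5 CPM in the controls over 7 tested of 12, with Rdl at 0 counts in all 6 libraries and no call. Enteroendocrine sums, given above, overlapped between the groups, and Syt4 is 1 of the 13 tested markers in them. Whether either cell type had a part in these rises was not tested.

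A set of genes was close to absent from the controls. Of 807 tested genes with a mean below 1 CPM in the controls, 26 were called higher, against 2.34% of all tested genes. Of the 26, 9 had 0 counts in all 3 controls and 15 belonged to a list. Genes at 0 counts there passed the filter on counts only through the swm RNAi libraries, which fixed their direction. For a gene at 0 counts the fold is a lower bound against a floor of 3 counts over the control group, which covers counting error only. CG9084 had 403 counts over the swm RNAi libraries, at least 169-fold higher, and CG14835 had 305, at least 128-fold higher. Their spans overlap those of other called genes, Syx6 and CG42458 in that order, and reads may have been shared. Ugt49B1 had 22.6, 14.9 and 8.47 CPM in the swm RNAi libraries, against 0, 0 and 0.0491 CPM in the controls, or 730 counts against 1, a ratio of 919 (95% counting interval 164 to 36400), and its call held. Ugt49C1 had 161, at least 67.6-fold higher, and lost its call without swm RNAi replicate 1, 2 or 3 or control replicate 2 (highest edgeR adjusted p 0.197, without swm RNAi replicate 1). The serpin gene Spn77Ba had 158, at least 66.3-fold higher, and lost its call without swm RNAi replicate 1, 2 or 3 or control replicate 2 (highest edgeR adjusted p 0.328, without swm RNAi replicate 2). Its neighbour Spn77Bb had 5.97, 9.46 and 8.47 CPM in the swm RNAi libraries, against 0, 0.490 and 0 CPM in the controls (edgeR log2 fold change 5.54 with SE 1.22, adjusted p = 0.0355) and lost its call without swm RNAi replicate 1, 2 or 3 (highest edgeR adjusted p 0.172, without swm RNAi replicate 2). Serpins, which block serine proteases, and serine protease homologs together had 4 of 18 tested members higher, with 0 lower, against 2.34% and 0.832% of all tested genes. All 4 had at most 10 counts over the controls and passed the filter only through the swm RNAi libraries, which fixed their direction. Their share beside that of all tested genes is therefore no evidence of a rise in the family. Among the 4, sphinx1 and sphinx2 lie within the span of the called gene CG42458. side, a cell-surface protein that attracts motor axons, had 237 counts against 3 over the controls, a ratio of 99.5 (95% counting interval 33.6 to 486), and lost its call without swm RNAi replicate 1, 2 or 3 (highest edgeR adjusted p 0.279, without swm RNAi replicate 2). In the other direction, 4 genes called lower had a mean below 1 CPM in the swm RNAi libraries.

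Some called genes lay side by side. Ordering the tested genes along each chromosome, 17.7% of the called genes had a called gene as a direct neighbour, against 6.14% of all tested genes. There were 21 runs of adjacent called genes with the same direction, 19 higher and 2 lower, with 46 genes in all. Several held members of 1 family: Ugt49B1 with Ugt49C1 (2R, 21212880 to 21217779), Spn77Ba with Spn77Bb (3L, 20317190 to 20322358), Arc1 with Arc2 (2R, 14357927 to 14362825) and the lower Jheh1 with Jheh2 (2R, 18853434 to 18858245). In these 4 runs the annotated spans do not overlap. The longest run held 5 genes, unc-104, CG34189, CG5267, CG42392 and CG5348 (2R, 16751503 to 16772671). Spans overlap there, on both strands, as they do in 7 of the 21 runs, among them Gcn5 with ver, His3.3A with Nepl3, CG9084 with Syx6 and Fer1HCH with Fer2LCH. Overlap was looked for only within a run. Between runs, CG14835, sphinx1 and sphinx2 (3L, 7436808 to 7440733) lie within the span of CG42458, called in the run before (3L, 7408493 to 7454717). Strand use in counting is not stated, so shared reads cannot be told apart in these 7 runs or between those neighbouring runs. A pair of hairpin RNA genes, hpRNA:CR32207 and hpRNA:CR33940 (3L, 19477329 to 19488439), also rose side by side. Coordinates are those of the BDGP6 annotation.

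Silencing and chromatin lists gave 0 to 2 calls each, against 2.34% higher and 0.832% lower over all tested genes. Of 27 tested piRNA pathway genes, which silence transposons chiefly in the germ line and its support cells, 2 were higher: piwi, at 1295, 764 and 488 CPM in the swm RNAi libraries, against 54.0, 34.1 and 50.1 CPM in the controls (edgeR log2 fold change 4.20 with SE 0.38, adjusted p = 0.000432), and the helicase gene spn-E, at 41.4, 40.9 and 52.04 CPM in the swm RNAi libraries, against 9.41, 10 and 7.81 CPM in the controls (edgeR log2 fold change 2.30 with SE 0.23, adjusted p = 0.000194). Of the 6 tested of 11 ovary and germline markers, piwi was the called gene. In the SAGA and ATAC histone acetyltransferase complexes, grouped after their values had been seen, 2 of 23 tested genes were higher. Gcn5, the acetyltransferase, had 188, 165 and 138 CPM in the swm RNAi libraries, against 46.4, 70.5 and 61.4 CPM in the controls (edgeR log2 fold change 1.46 with SE 0.20, adjusted p = 0.00167), and Ada2b was higher by 1.10 (SE 0.24) and lost its call without swm RNAi replicate 1, 2 or 3 or control replicate 1 or 3 (highest edgeR adjusted p 0.181, without swm RNAi replicate 2). Gcn5 overlaps the called gene ver. Polycomb, trithorax and remodelling genes gave 0 calls of 50. Of 323 tested long noncoding RNAs, 6 (1.86%) were higher and 1 lower with all 6 libraries, and 12 of 369 were higher and 1 lower without control replicate 2. Of 211 tested small nucleolar and Cajal body RNAs 2 were higher.

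Lists without a call numbered 33, and 27 of them had at least 10 tested members. Their medians ran from -0.32 in nuclear tRNAs to 0.86 in digestive enzymes. Besides those already given they included the vacuolar proton ATPase (19 tested), glycolysis (13), Rab GTPases and ESCRT (57), ribosome biogenesis and Myc (29), RNA granule and deadenylation genes (34), immune effectors (28) and chemoreceptors (33). Outside the lists, the largest rises among genes with a name beyond a CG number that reached a group mean of 5 CPM were twz, bi, nab, Mec2 and rdog. Mec2, a stomatin-like protein, had 35.9, 34.2 and 23.7 CPM in the swm RNAi libraries, against 0.665, 1.91 and 1.23 CPM in the controls (edgeR log2 fold change 4.61 with SE 0.41, adjusted p = 9.99e-05). nab, a transcriptional cofactor, had 24.1, 13.7 and 11.4 CPM in the swm RNAi libraries, against 0.920, 0.441 and 0.590 CPM in the controls (edgeR log2 fold change 4.64 with SE 0.51, adjusted p = 0.000432). rdog had 89.4, 88.0 and 68.3 CPM in the swm RNAi libraries, against 2.45, 6.52 and 8.84 CPM in the controls (edgeR log2 fold change 3.78 with SE 0.41, adjusted p = 0.00147). twz and bi were higher by 5.44 (SE 0.76) and 5.03 (SE 1.03); twz lost its call without swm RNAi replicate 1 or 2 (highest edgeR adjusted p 0.0644, without swm RNAi replicate 1) and bi without swm RNAi replicate 1, 2 or 3 or control replicate 2 (highest edgeR adjusted p 0.189, without swm RNAi replicate 2). Among such genes the largest falls outside the lists were in pyd3, Prosap, Gpo1, FucTA and DAAM. Gpo1, a mitochondrial glycerol-3-phosphate oxidase, had 12.4, 15.3 and 10.9 CPM in the swm RNAi libraries, against 22.8, 45.1 and 46.4 CPM in the controls (edgeR log2 fold change -1.56 with SE 0.30, adjusted p = 0.0156). FucTA, a fucosyltransferase of N-glycans, was lower, with -1.55 (SE 0.31), and DAAM, a formin that builds actin filaments, with -1.34 (SE 0.30). Gpo1 lost its call without swm RNAi replicate 1 or 3 or control replicate 2 (highest edgeR adjusted p 0.0809, without swm RNAi replicate 3), FucTA without swm RNAi replicate 1 or 3 (highest edgeR adjusted p 0.0935, without swm RNAi replicate 3) and DAAM without swm RNAi replicate 1 or 2 or control replicate 2 or 3 (highest edgeR adjusted p 0.176, without swm RNAi replicate 2). pyd3 and Prosap were lower, with -3.31 (SE 0.45) and -2.07 (SE 0.42); Prosap lost its call without swm RNAi replicate 2 or 3 or control replicate 1 (highest edgeR adjusted p 0.0845, without swm RNAi replicate 2).

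Gene structure differed between higher and lower genes. Of 1392 tested genes with a single exon, 42 (3.02%) were higher and 2 (0.144%) lower, against 29 (2.20%) higher and 23 (1.74%) lower of 1321 genes with 9 or more exons. Of 5 classes of equal size by exon length, the longest held 43 higher and 26 lower genes and the shortest 38 and 5. By chromosome arm, 2.35% to 2.51% of the genes were higher on 2L, 2R, 3L and 3R and 1.86% on X. Calls also depended on level: of 2222 genes with a mean below 5 CPM, 12 were higher and 2 lower, against 55 and 17 of 1631 genes above 100 CPM. These shares are descriptions, with no test.

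Control replicate 2 departed from the other controls in 1 direction among abundant genes. A departure is the log2 CPM of a library minus the mean of the other 2 libraries of its group. Among 2885 genes that averaged 50 CPM or more, a limit chosen after seeing the data, 177 (6.14%) were at least 2-fold below in control replicate 2, 44 of them at least 4-fold, and 10 were at least 2-fold above. The swm RNAi libraries had 1 to 13 genes below and 1 to 18 above. Control replicate 3 had 18 below and 33 above, and control replicate 1 had 32 below and 152 above. Of those 152 genes, 117 were among the 177, and each of these libraries is part of the mean that the other is set against. Over all 8899 tested genes the order differed: control replicate 2 had 647 below and 1165 above, control replicate 3 had 1403 below and 851 above and control replicate 1 had 888 below and 1147 above.

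**Figure D3:**
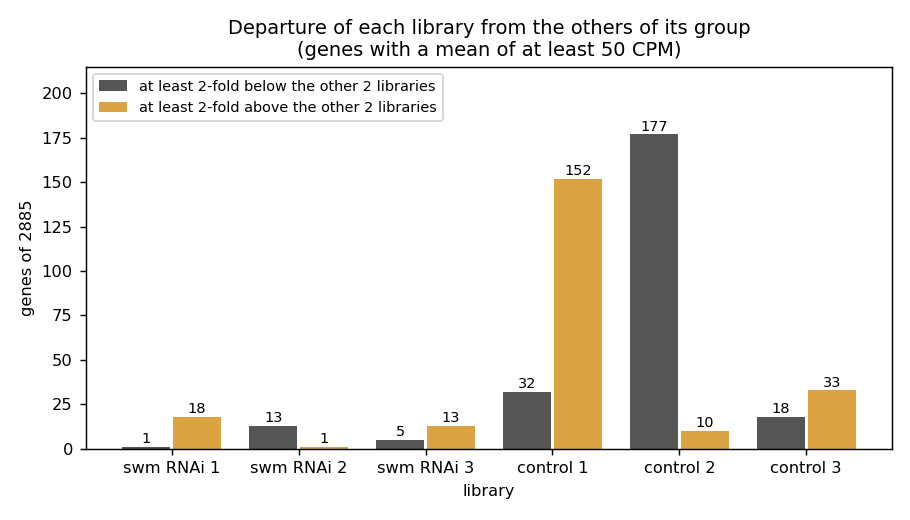
Number of genes (of 2885 that averaged 50 CPM or more) at least 2-fold below or at least 2-fold above the mean of the other 2 libraries of the group, for the 3 swm RNAi libraries and then the 3 controls. Control replicate 2 has 177 genes below and 10 above, and the swm RNAi libraries have at most 13 below and 18 above.

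These departures were also set against the swm RNAi libraries, the other group of the comparison. They serve as a reference only where swm RNAi left the genes unchanged, which is not known. In 172 of the 177 genes control replicate 2 was the lowest of all 6 libraries. Its low rank and level in these genes largely follow from choosing genes that are low in it. Against the mean of the swm RNAi libraries, their median log2 difference was -1.32 in control replicate 2, 0.46 in control replicate 1 and -0.13 in control replicate 3. Control replicate 1 lay above that mean in 169 of the 177. In 161 of the 177 both other controls lay within 2-fold of that mean. Over all 2885 genes, 235 were at least 2-fold below the swm RNAi mean in control replicate 2, 109 in control replicate 1 and 124 in control replicate 3, and 13, 27 and 41 were at least 2-fold above. The lowest departures were in Trf2, mamo, Unr, Myc and eIF4H1. Trf2, a general transcription factor, had 166, 239.7 and 196 CPM in the swm RNAi libraries, against 277, 12.6 and 202 CPM in the controls. Unr, an RNA-binding regulator of translation, had 86.9, 79.2 and 118 CPM in the swm RNAi libraries, against 173, 7.99 and 72.4 CPM in the controls. eIF4H1, a translation initiation factor, had 219, 276 and 262 CPM in the swm RNAi libraries, against 458, 25.9 and 238 CPM in the controls. In each of them control replicate 2 lay below the other 5 libraries, which choosing the largest falls favours. The largest rises in control replicate 2 were in Muc68D, CG34324, CG34220, dysf and Cyp6d2.

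The low genes tended to have a long 3′UTR. Their median longest annotated 3′UTR was 2224 bases, against 584 bases over the 2885 genes, and their median coding sequence 2648 against 1962 bases. Splitting the genes into sixths by 3′UTR, 119 of 455 genes (26.2%) in the sixth with the longest 3′UTRs (1704 to 18494 bases) were at least 2-fold below in control replicate 2, against 4 of 458 (0.873%) in the sixth with the shortest. The median departure in the longest sixth was -0.60 in control replicate 2, 0.60 in control replicate 1, 0.07 in control replicate 3 and -0.18 to 0.13 in the swm RNAi libraries. By coding sequence the gradient was shallower, with 10.3% in the longest sixth and 2.85% in the shortest. By total exon length, which includes the 3′UTR, it was 19.8% in the longest sixth and 0.22% in the shortest. Median departures of control replicate 2 were -0.48 and 0.20 in those sixths. Whether the departure goes with the 3′UTR or with the length of the whole transcript was not tested. On the X chromosome lay 51 of the 177 genes (28.8%), against 17.9% of the 2885. The annotated 3′UTR is that of the BDGP6 annotation, not of the RNA in these cells, and RNA length or integrity was not measured in these files.

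**Figure D4:**
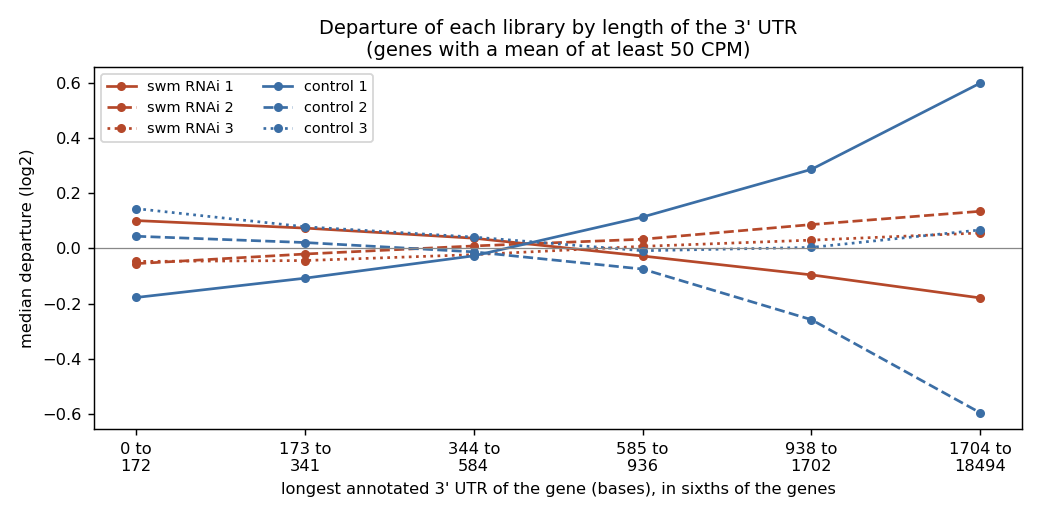
Median departure (log2, y axis) of genes that averaged 50 CPM or more, in sixths by length of the longest annotated 3′UTR (x axis, short to long), with a line for each of the 6 libraries. Control replicate 2 falls to -0.60 and control replicate 1 rises to 0.60 in the longest sixth, and the other 4 libraries stay between -0.18 and 0.13 there.

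By function, several lists of regulators held genes that were low in control replicate 2. RNA granule, deadenylation and repression genes had 8 of 27 members with at least 50 CPM 2-fold below, against 6.14% of all such genes, and a median departure of -0.53 over the tested members. Their summed level was 13130, 15300 and 14490 CPM in the swm RNAi libraries, against 18610, 5328 and 12210 CPM in the controls. Notch genes had 5 of 18 below, splicing factors 5 of 27, bZIP factors 4 of 14, progenitor identity genes 4 of 17 and insulin, TOR and foxo genes 4 of 18. Dpp and activin genes had 0 of 14 below at 2-fold, with a median departure of -0.53. Control replicate 1 departed the other way in each of these lists, in the order given by 0.54, 0.16, 0.02, 0.52, 0.35, 0.13 and 0.34. The medians of control replicate 2 in that order were -0.53, -0.04, -0.09, -0.15, -0.12, -0.20 and -0.53. Each of these libraries is part of the mean that the other is set against, so the medians do not single out control replicate 2. Cytosolic ribosomal proteins had a median departure of 0.33 and took 21.8% of all counts in control replicate 2, against 15.9% to 17.7% in the swm RNAi libraries and 14.8% and 18.5% in the other controls. For the DNA end joining list the median departure was 0.36, and for glutathione S-transferases 0.14, control replicate 2 lying above the mean of the other controls by the median but not in every gene.

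With control replicate 2 left out, 264 of 9297 genes tested were called (2.84%), 196 higher and 68 lower. Both fits shared 213 genes, 75.5% of the calls with all 6 libraries and 80.7% of those without it. The 69 genes that lost their call comprised 44 higher and 25 lower genes, and the 51 that gained one 32 and 19. Of the 177 genes low in control replicate 2, 0 were called with it and 6 without it, 5 of them lower, and their median log2 fold change was 0.16 with it and -0.22 without it, a direction that the choice of these genes fixes. Heat shock genes were among those gained. Hsp26, a small heat shock protein, had 686, 687 and 707 CPM in the swm RNAi libraries, against 393, 765 and 345 CPM in the controls; its log2 fold change was 0.47 with control replicate 2 (edgeR adjusted p = 0.579) and 0.90 without it (edgeR adjusted p = 0.0159). Hsp68 and Hsp70Ba had 0.83 and 1.50 without it, so that 3 of 24 heat shock genes were called higher. In the Notch list, the ligand gene Dl had -0.996 and the target E(spl)mgamma-HLH 1.92 without it (edgeR adjusted p = 0.0250 and 0.00622), against -0.64 and 1.38 with it (edgeR adjusted p = 0.580 and 0.0972). In the basement membrane list trol, which encodes perlecan, was called lower without it, with -1.13, and the laminin gene wb was called lower with it, with -0.82 (SE 0.18); wb lost its call without swm RNAi replicate 1 or 3 or control replicate 2 or 3 (highest edgeR adjusted p 0.219, without swm RNAi replicate 3). Without control replicate 2, the calls for replication protein A were 2 of 3, for other repair genes 3 higher and 1 lower of 52, for glutathione S-transferases 5 of 27 and for UDP-glycosyltransferases 4 of 20. Replication origin genes had 2 higher of 38 without it, mitosis and cyclin genes 1 higher and 1 lower of 63, and receptor tyrosine kinases and their ligands 1 higher and 2 lower of 15. Ribosome rescue factors had 2 higher of 9, serpins and serine protease homologs 3 higher of 19, synaptic release genes 3 higher and 1 lower of 31 and insulin, TOR and foxo genes 2 higher of 20. Actin, tubulin and muscle contraction genes had 2 lower of 29, juvenile hormone epoxide hydrolases 1 lower of 3 and RNA granule, deadenylation and repression genes 1 higher of 34. Of 30 mRNA export and exosome genes 1 was higher without it, Pabp2, a nuclear poly(A)-binding protein, with 1.16 (edgeR adjusted p = 0.00573), against 1.51 with it (edgeR adjusted p = 0.0666).

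**Figure D5:**
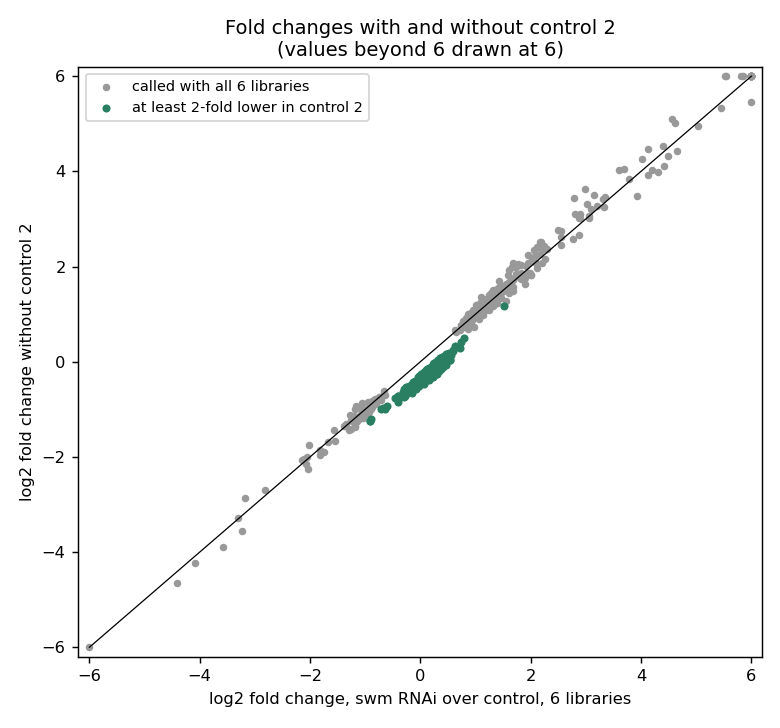
Log2 fold change (swm RNAi over control) of each gene with control replicate 2 (x axis) and without it (y axis); grey points are the 282 genes called with all 6 libraries, values beyond 6 set at 6, and green points the 177 genes at least 2-fold below in control replicate 2. The green points lie mostly below the diagonal, with a median of 0.16 with the library and -0.22 without it, a direction fixed by choosing genes that are low in that library.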

How the data were processed

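Total RNA of sorted progenitors was depleted of rRNA and sequenced, per the labels' protocols. Raw counts per gene were deposited by the authors. Of the tools in the submitters' processing notes, STAR 2.7.3a aligns reads, cutadapt 2.9 trims them, and featureCounts of Subread 2.0.0 counts them; SAMtools 1.10 and DESeq2 are also listed. The genome build, the annotation and the strand setting are not given in the sources used here. A row without a gene name, with at most 5 counts in a library, was left out. The authors' deposited table of the comparison holds log2 fold changes and p-values, raw and adjusted, used only where it is named. A further 12 per-sample columns were not used.

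The count test was that of edgeR 4.0.16 in R 4.3.3 (filterByExpr with a minimum count of 10, TMM scaling, robust quasi-likelihood fit, Benjamini-Hochberg adjustment over 8899 genes, threshold 0.05), on 3 libraries a side without covariates. The standard error (SE) was taken as the ratio of the log2 fold change to the square root of F. The fit was tested on simulated data with known changes. Libraries held 14627251 to 19962224 counts, and CPM uses these totals after TMM scaling. Departures use log2 CPM with a prior count of 2. A gene at 0 counts has a floor of 3 counts over its group. Coordinates, exons and 3′UTRs come from the Ensembl BDGP6 annotation, matched by symbol for 95.6% of genes; the length given in the count table equalled the summed exon length there for 99.2% of the matches.

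The lists of genes, and the rule by which genes are named, were chosen with earlier results of these data known. The rule took swm; in each list, up to 3 called members, by adjusted p; the most abundant member of a list without calls; the 2 most abundant members of the lists with the 5 lowest and 5 highest median departures of control replicate 2; the 5 largest called rises and falls outside the lists; and the 5 largest falls and rises in control replicate 2. Not all genes it took are described. Further members of described lists, the genes gained without control replicate 2 and the neighbouring pairs were named after their values were seen. Alternatives were other size factors, DESeq2 1.42.0, limma 3.58.1 voom with sample weights, other filters, the robust option off, an offset on gene length (loess, span 0.3), a fit without mitochondrial and small RNA genes, a replicate block and each library left out.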

Additional observations from a re-analysis of the deposited data

How the results depend on the processing

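The 282 called genes (208 higher, 74 lower) became 469 with DESeq2 (320 and 149) and 527 without the filter on low counts (351 and 176). Leaving out 1 library gave 141 to 392 called genes, 114 to 276 higher and 24 to 116 lower, and the lower genes numbered 116 without control replicate 1. Each of the other settings kept the total within 1.5 times. Upper-quartile factors gave 181 higher and 92 lower, and library sizes alone 188 and 88. The median over all genes moved between -0.05 and 0.08. With a library left out, the medians of cytosolic ribosomal proteins, cytochrome P450s and antioxidant enzymes changed sign in at least 1 fit. Among the 82 lists, those with a call stayed within 1.5 times of 49 in every setting, from 37 without swm RNAi replicate 2 or 3 to 66 with DESeq2. The replicate numbers did not pair the samples: deviations of same-numbered libraries correlated at -0.0631, -0.0487 and 0.00401, and no swm RNAi library correlated best with the control of its own number. A fit with the replicate block called 287 genes (211 and 76), of which 243 were shared.

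Genes at least 2-fold above in control replicate 2 numbered 1165 over all tested genes, 224 at a mean of at least 5 CPM, 10 at 50 CPM and 9 at 50 CPM with the offset on gene length; genes at least 2-fold below numbered 647, 282, 177 and 113. The limit of 50 CPM was added after seeing the data.

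Of 1879 values of the 111 genes described, 1607 kept their direction and side of the threshold, 238 lost the call, 22 gained one and 12 changed sign, all 12 in genes that were not called. The log2 fold change of swm was 0.071 with limma voom, 0.0073 with the replicate block and 0.021 with the offset on gene length, and -0.15 to 0.063 with a library left out. With a library left out, DNApol-theta ran from -0.0084 to 0.16, Trf2 from -0.26 to 0.91, Unr from -0.38 to 1.24 and eIF4H1 from -0.47 to 0.93; the lower end was without control replicate 1 for DNApol-theta and without control replicate 2 for the other genes. With 3 libraries a side, a call missed for a gene of few counts does not show that it was level.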
